A study of Mus musculus with 10 samples.

Results

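The genes described here are 10 membrane transporters that bring glucose and amino acids into the cell: Slc2a1 and Slc2a3 for glucose, and Slc3a2, Slc7a1, Slc7a3, Slc7a5, Slc7a11, Slc1a5, Slc38a1 and Slc38a2 for amino acids. They were chosen by name, as the Ensembl gene of each symbol in the GENCODE vM21 annotation, and all 10 were found among the 55487 genes of the RNA-seq tables. The RNA-seq group held 3 replicates of E14, a mouse embryonic stem cell line, with no genotype change or treatment named in the labels. Cells grew in DMEM with 15% serum, LIF, 3 µM of a GSK inhibitor and 1 µM of a MEK1/2 inhibitor, and the medium was supplemented with GlutaMAX (a stabilised source of glutamine) and with non-essential amino acids. The other 7 samples of the series, in 5 groups that map R-loops by MapR or BisMapR or serve as controls for those maps, were not analysed here. No second condition could therefore be set against these cells, and each statement below compares genes within libraries or the 3 libraries with each other. Nothing in the labels says that the replicates were separate cultures, so their spread may be technical.

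Glucose enters most mammalian cells through facilitative carriers of the SLC2 family, which move the sugar down its gradient. GLUT1, made by Slc2a1, is the widespread form, and GLUT3, made by Slc2a3, has a higher affinity and is best known from neurons and early embryos. Amino acids need more carriers. The heavy chain 4F2hc, made by Slc3a2, takes light chains of the SLC7 family to the surface, among them LAT1 (Slc7a5), which exchanges glutamine for leucine and other large neutral amino acids, and xCT (Slc7a11), which exchanges glutamate for cystine. Slc7a1 and Slc7a3 make the arginine and lysine carriers CAT1 and CAT3, and Slc1a5, Slc38a1 and Slc38a2 make the sodium-coupled carriers ASCT2, SNAT1 and SNAT2 of glutamine and other neutral amino acids. Embryonic stem cells are known for rapid glycolysis. The use of glucose and of glutamine by these cells was not measured here.

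Sequencing gave 11420425 estimated counts in replicate 1, 6467405 in replicate 2 and 5787357 in replicate 3. The 5 stem cell markers Pou5f1, Nanog, Sox2, Zfp42 and Esrrb summed to between 420.8 and 558.8 TPM per library (a relative abundance of transcripts that corrects for their length). None of the 18 markers of fibroblasts, extraembryonic endoderm, trophoblast or neural progenitors reached a mean of 1 TPM, and the summed level of each of these lists lay between 0.05 and 1.07 TPM in every library. Their highest marker was the neural gene Sox1, at 0.733 TPM on average, and 6 of the 18 had no count in any library: Col3a1, Dcn, Lum, Postn, Prl3d1 and Olig2.

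A mean of at least 1 TPM was reached by 9 of the 10 transporters, where 19.8% of all genes and 44.2% of protein-coding genes reached it. The exception was Slc7a11. The median of the 10 genes was 4.48 ± 0.57 in log2(TPM + 1) (SD, n = 3), beside medians of 0.54 ± 0.11 over protein-coding genes and 0 over all genes. Many genes in those 2 sets lie under 1 TPM. Over the genes that passed the abundance filter of the variability test below, as all 10 transporters did, the median was 2.39 ± 0.27 (SD, n = 3). In order of mean level, Slc2a3 was followed by Slc3a2, Slc2a1, Slc7a5, Slc1a5, Slc38a2, Slc7a3, Slc38a1, Slc7a1 and Slc7a11. Between neighbours in that order, the range of TPM over the 3 libraries failed to overlap only at the top, between Slc2a3 and Slc3a2, and at the bottom, between Slc7a1 and Slc7a11. Slc3a2 was above Slc2a1, Slc2a1 above Slc7a5, and Slc7a5 above Slc1a5 inside each of the 3 libraries, although their ranges overlapped. The 5 genes from Slc1a5 to Slc7a1 had means between 15.7 and 22.9 TPM, and no neighbours among them kept the same order in all 3 libraries. TPM depends on what shares the denominator, and genes with an effective length under 100 nt took 60.3%, 65.8% and 63.9% of it in replicates 1, 2 and 3. Leaving those short genes out multiplies every other TPM by 2.52, 2.93 and 2.77, a log2 shift of 1.33, 1.55 and 1.47, and changes no ratio within a library.

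**Figure D1:**
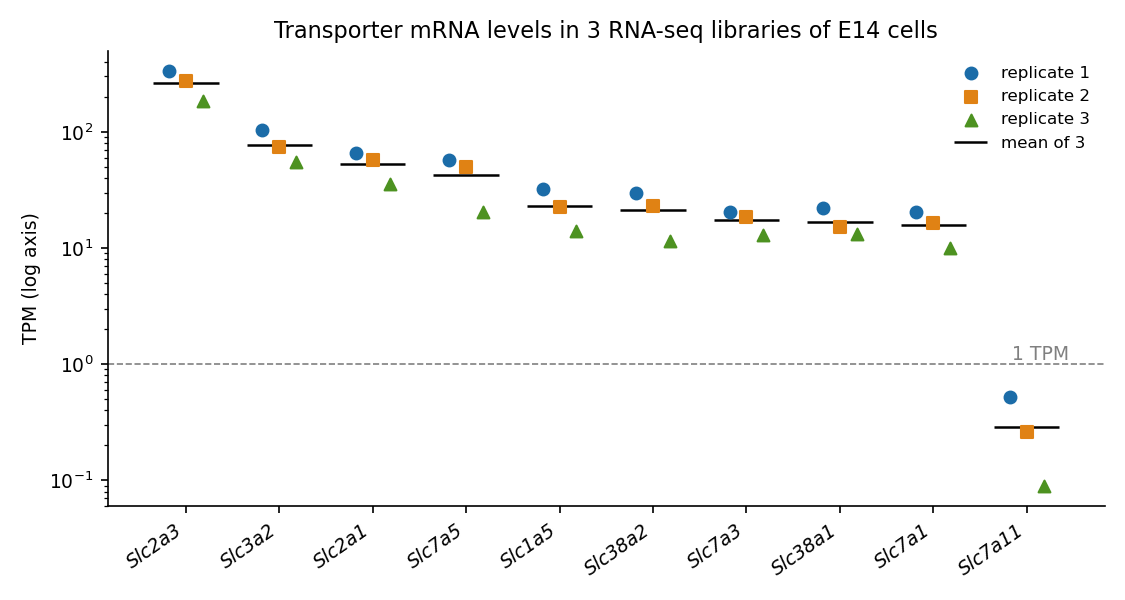
Level of each transporter in TPM (vertical log axis), with 1 point per library, a black line at the mean of the 3 and a dashed line at 1 TPM. Slc2a3 lies between 186 and 332 TPM, above every other gene, and Slc7a11 lies at 0.52 TPM or below.

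The glucose carriers were unequal. Slc2a3 (ENSMUSG00000003153, GRCm38 chromosome 6, 122727809 to 122801640, minus strand) had 332, 276 and 186 TPM in replicates 1, 2 and 3, from 31857, 17346 and 13455 estimated counts. Slc2a1 (ENSMUSG00000028645, chromosome 4, 119108711 to 119137983, plus strand) had 66.0, 57.7 and 35.4 TPM, from 4328, 2569 and 1569 counts. Slc2a3 was the higher of them by 5.02, 4.79 and 5.24 times in the same libraries, and the ranges did not overlap. The log2 ratio of Slc2a1 to Slc2a3 was -2.33 ± 0.07 (SD, n = 3). An exact two-sided sign-flip permutation test over the libraries gave p = 0.25, the smallest that 3 libraries allow (0.5 after Benjamini-Hochberg adjustment over the 6 ratios tested), so no ratio here could pass 0.05. In bulk RNA, more cells that express a gene and more RNA in each of them cannot be told apart.

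Slc2a3 held 80.5% ± 0.35 (SD, n = 3) of the TPM of the 15 listed hexose carriers (SLC2, the sodium-coupled Slc5a1 and Slc5a2, and Slc50a1), and Slc2a1 held 16.1% ± 0.70. By mean TPM Slc2a3 ranked 91 among 21897 protein-coding genes. It ranked first among the 371 protein-coding genes whose symbol starts with Slc and a number, ahead of Slc25a5, a mitochondrial ADP/ATP carrier named here after its value was seen, at 130 ± 8.11 TPM (SD, n = 3). Slc2a1 ranked 7 in that set. Of the 13 other hexose carriers, only Slc50a1, at 6.67 ± 1.12 TPM, and Slc2a8, an intracellular carrier at 2.57 ± 0.51 TPM (SD, n = 3), reached a mean of 1 TPM. The insulin-responsive Slc2a4 had 0.28, 0.25 and 0.35 TPM, and the liver and islet carrier Slc2a2 had 1, 0 and 1 counts, under the floor of 3 counts used here.

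Slc3a2 (ENSMUSG00000010095, chromosome 19, 8706882 to 8723369, minus strand) was the highest amino acid gene, at 105, 73.7 and 54.8 TPM, from 3763, 1900 and 1472 counts. Slc7a5 (ENSMUSG00000040010, chromosome 8, 121881150 to 121907694, minus strand) had 57.5, 49.7 and 20.3 TPM, from 5200, 3076 and 1209 counts. Replicate 3 was low for both and lower for Slc7a5. The 6 light chains that pair with 4F2hc (Slc7a5, Slc7a6, Slc7a7, Slc7a8, Slc7a10 and Slc7a11) summed to 81.5, 66.5 and 34.2 TPM. The log2 ratio of the heavy chain to that sum was 0.40 ± 0.27 (SD, n = 3), positive in 3 of 3 libraries, at 1.29, 1.11 and 1.60 times (exact two-sided sign-flip permutation p = 0.25, the smallest allowed, adjusted 0.5). Scaled for library size only and not for length, the same ratio was -0.69, the opposite direction. The listed length averaged 1505 nt for Slc3a2 and 3386 nt for Slc7a5.

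Slc7a5 held 70.5%, 74.8% and 59.3% of the light chain TPM. The rest was mostly Slc7a6 and Slc7a7, which make the y+L carriers of cationic and neutral amino acids. Slc7a6 was at 10.1 ± 2.67 TPM and Slc7a7 at 7.79 ± 2.69 TPM (SD, n = 3). Slc7a8, the light chain LAT2, was at or below 0.10 TPM, and Slc7a10 had no counts, which allows up to 0.518 CPM (counts scaled to a common library size) in the shallowest library.

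Slc7a11 (ENSMUSG00000027737, chromosome 3, 49892526 to 50443614, minus strand) was the lowest of the 10, at 0.52, 0.26 and 0.09 TPM. Its estimated counts were 47.9, 32 and 14, with exact 95% Poisson intervals on the rounded counts of 35.4 to 63.6, 21.9 to 45.2 and 7.65 to 23.5, which cover counting error only. It was therefore detected above the floor in each library and held 0.43% ± 0.19 (SD, n = 3) of light chain TPM. Slc7a5 exceeded it by 110, 191 and 225 times (log2 ratio 7.39 ± 0.54, SD, n = 3; exact two-sided sign-flip permutation p = 0.25, adjusted 0.5). The TPM of Slc7a11 spread 5.78 times between libraries, its library-scaled counts only 1.83 times. The length that the tables list for the gene, a mean over its isoforms weighted by their estimated abundance, was 3502, 6523 and 8095 nt in the same order, a 2.31-fold spread where the other 9 genes spread at most 1.15-fold. With 1 length per gene in all libraries, an alternative chosen after seeing the data, the log2 ratio was 7.43 ± 0.17 (SD, n = 3). It was 6.59 without length scaling and 4.96 with a pseudocount of 1 TPM, so the fold depends on the scale used.

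Promoter sequences were available for 5 of the 10 genes in a RefSeq table (GRCm38.p6): Slc2a1, Slc3a2, Slc7a1 (2 starts), Slc7a11 and Slc38a2. Slc2a3, Slc7a3, Slc7a5, Slc1a5 and Slc38a1 had no entry. The 250 bases before each RefSeq start were searched on both strands for 4 sets of letters: TGATGNAA (the amino acid response element bound by ATF4), CACGTG (the E-box), ACGTG (the hypoxia element core, also contained in the E-box) and TGACNNNGC (the antioxidant response element bound by NRF2). These occurred in 3.45%, 6.02%, 16.6% and 10.2% of the 32851 promoters in the table. The windows of the lowest gene, of its heavy chain partner and of the lower glucose carrier are shown 5′ to 3′ on the gene's strand, with matches to any of the 4 in capitals.
Slc7a11, chr3:50443614-50443863, minus strand: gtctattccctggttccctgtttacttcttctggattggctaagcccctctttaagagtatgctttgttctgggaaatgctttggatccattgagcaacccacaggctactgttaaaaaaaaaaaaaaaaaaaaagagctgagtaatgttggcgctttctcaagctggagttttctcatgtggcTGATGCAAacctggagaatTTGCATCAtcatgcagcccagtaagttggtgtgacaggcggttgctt
Slc3a2, chr19:8713898-8714147, minus strand: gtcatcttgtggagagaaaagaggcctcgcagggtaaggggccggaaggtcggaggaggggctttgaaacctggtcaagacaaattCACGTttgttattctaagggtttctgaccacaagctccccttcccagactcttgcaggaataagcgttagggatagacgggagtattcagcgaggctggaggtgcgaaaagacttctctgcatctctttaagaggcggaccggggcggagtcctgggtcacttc
Slc2a1, chr4:119108495-119108744, plus strand: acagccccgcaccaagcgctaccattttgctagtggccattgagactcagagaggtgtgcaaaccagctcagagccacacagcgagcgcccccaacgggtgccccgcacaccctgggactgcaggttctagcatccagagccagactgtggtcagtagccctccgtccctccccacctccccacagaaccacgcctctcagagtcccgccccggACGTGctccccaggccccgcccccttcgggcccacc

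The Slc7a11 window held 2 matches to the amino acid response element, on opposite strands, beginning 66 and 47 bases before the start. It was the only one of the 6 windows with such a match. The windows of Slc3a2 and Slc2a1 each held 1 hypoxia element core, 164 and 36 bases before the start. Slc38a2 and the upstream start of Slc7a1 each held 1 antioxidant response element, and the other Slc7a1 start held none of the 4. GC content was 43.2% in the Slc7a11 window, 53.6% for Slc3a2 and 66.4% for Slc2a1, beside a median of 52.4% over all windows. These are matches of letters in a short window, and binding was not measured.

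Slc3a2 has more than 1 annotated start. The RefSeq start of the window shown lies 9472 bases inside the GENCODE gene, whose outermost start is 106 bases from that of Snhg1, a noncoding host gene of small nucleolar RNAs on the other strand. Snhg1 had 110, 103 and 61.7 TPM, and Slc3a2 stood at 0.951, 0.712 and 0.888 of that in replicates 1, 2 and 3. The gene-level tables do not divide Slc3a2 between its starts. Slc7a5 also has a head-to-head neighbour, the noncoding gene BC048644, whose start is 139 bases away and whose level was 0.39, 0.34 and 0.24 TPM.

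Slc7a1 (ENSMUSG00000041313, chromosome 5, 148327410 to 148399904, minus strand) had 20.5, 16.5 and 10 TPM, from 3636, 1998 and 1247 counts. Slc7a3 (ENSMUSG00000031297, chromosome X, 101079210 to 101086020, minus strand) had 20.4, 18.5 and 13.0 TPM, from 1107, 727 and 498 counts. Slc7a1 was the higher in 1 of 3 libraries, and the log2 ratio of Slc7a1 to Slc7a3 was -0.18 ± 0.20 (SD, n = 3; exact two-sided sign-flip permutation p = 0.5, adjusted 0.5), within the spread between libraries. Per library size without length, Slc7a1 was higher by 1.50 on the log2 scale, and its listed length averaged 6639 nt against 2168 nt for Slc7a3. The third cationic carrier, Slc7a2, had 0.61, 0.37 and 0.20 TPM.

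Slc1a5 (ENSMUSG00000001918, chromosome 7, 16781340 to 16798274, plus strand) had 32.2, 22.4 and 13.99 TPM, from 1469, 797 and 502 counts. Slc38a2 (ENSMUSG00000022462, chromosome 15, 96687392 to 96699730, minus strand) had 29.8, 23.0 and 11.4 TPM, from 3827, 2047 and 1038 counts, and Slc38a1 (ENSMUSG00000023169, chromosome 15, 96571418 to 96642913, minus strand) had 21.9, 15.1 and 13.3 TPM, from 1831, 943 and 740 counts. Slc38a2 was above Slc38a1 in replicates 1 and 2 and below it in replicate 3. Their log2 ratio was 0.28 ± 0.44 (SD, n = 3), and that of Slc1a5 to Slc38a2 was 0.12 ± 0.17. Neither log2 ratio exceeded its SD (exact two-sided sign-flip permutation p = 0.5 for each, adjusted 0.5), which does not show equal levels. Without length scaling the ratio of Slc1a5 to Slc38a2 was -1.26, the opposite direction, and that of Slc38a2 to Slc38a1 was 0.89. The listed lengths averaged 1954 nt for Slc1a5, 4879 nt for Slc38a2 and 3239 nt for Slc38a1. Without replicate 3 the ratio of Slc38a2 to Slc38a1 was 0.52 on the log2 scale, and without replicate 2 it was 0.11.

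**Figure D2:**
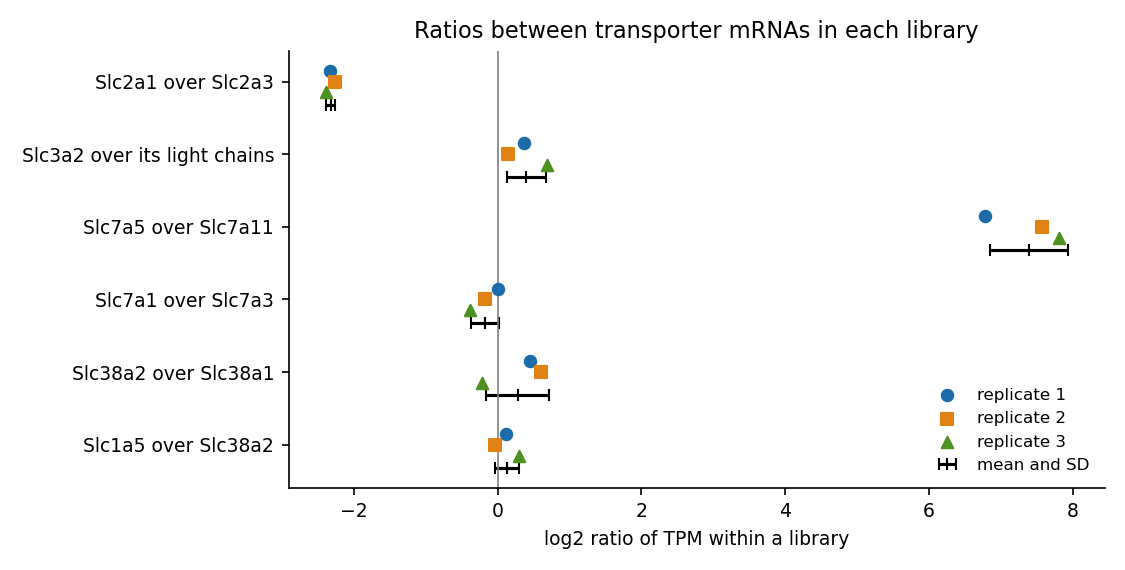
Log2 ratio of TPM within a library (horizontal axis) for the 6 ratios, with 1 coloured point per library and the mean with its SD below the points in black. Slc2a1 over Slc2a3 lies near -2.33 in all 3 libraries and Slc7a5 over Slc7a11 at 6.79 or above. The 3 ratios drawn in the bottom rows have points on both sides of 0.

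Among 50 listed carriers of the SLC1, SLC2, SLC3, SLC5, SLC7, SLC38 and SLC50 families, the 10 genes held 81.7% ± 1.86 of the summed TPM (SD, n = 3). Much of that share was Slc2a3 alone, at a mean of 265 TPM where the 10 genes summed to 532 TPM. Of the 40 others, 11 reached a mean of 1 TPM, 15 had at most 3 counts in every library and 5 had none at all. Their median was 0.20 ± 0.04 in log2(TPM + 1) (SD, n = 3). The highest was Slc38a4, an amino acid carrier imprinted in mouse, at 41.1, 36.3 and 32.1 TPM, above Slc38a1 and Slc38a2 in every library and with no overlap of ranges. It held 34.9% ± 4.59 of SLC38 TPM, and Slc38a1 and Slc38a2 together held 35.1% ± 4.08 (SD, n = 3). Slc1a4, the carrier ASCT1 of alanine, serine and cysteine, followed at 23.3, 15.9 and 10.5 TPM, below Slc1a5 in each library. Slc38a7, a lysosomal carrier, was at 13.8 ± 3.96 TPM, Slc38a10 at 11.9 ± 3.38 TPM and Slc38a9, a lysosomal arginine sensor of mTORC1, at 3.53 ± 0.30 TPM (SD, n = 3). Of the glutamate carriers, Slc1a1, the form best known from neurons, was at 1.70, 1.30 and 1.32 TPM, and the mainly glial Slc1a2 and Slc1a3 were at no more than 0.01 and 0.48 TPM.

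**Figure D3:**
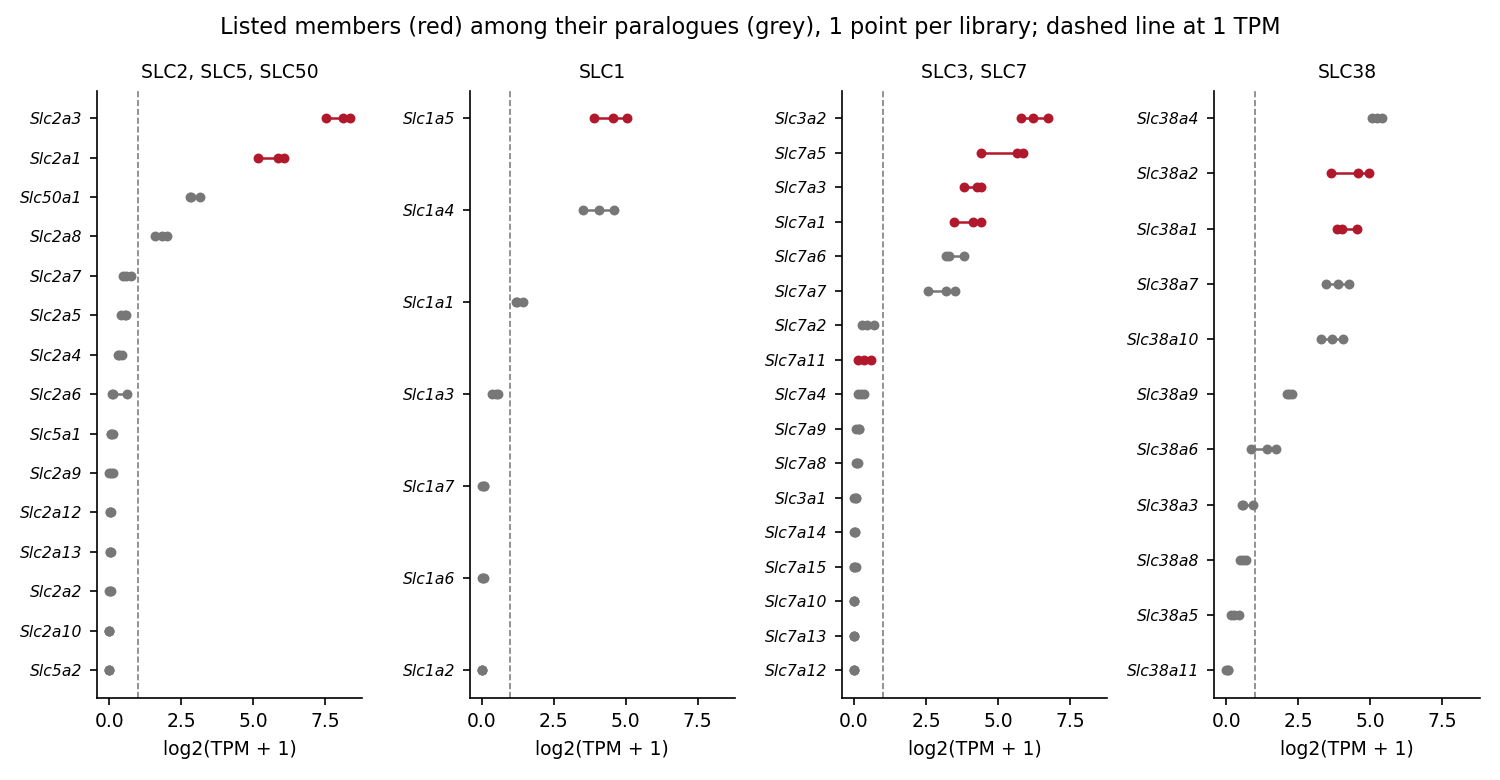
Levels in log2(TPM + 1) (horizontal axis) of the 50 listed carriers by family, with 1 point per library, the 10 described genes in red, their paralogues in grey and a dashed line at 1 TPM. Slc38a4 is the grey gene farthest to the right, and Slc7a11 is the red gene left of the dashed line.

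Genes that act beside these carriers were read from 4 lists of 32 genes in all. Of the 7 genes of glucose trapping and its regulators, 5 reached a mean of 1 TPM. Hk2, a hexokinase that phosphorylates glucose after entry, had 47.4, 38.8 and 25.4 TPM, above Hk1 at 12.1, 9.04 and 5.55 TPM in every library, while Hk3 had no counts. Txnip, an arrestin that promotes the removal of glucose carriers from the surface, had 75.1, 57.5 and 33.0 TPM. All 9 genes of the amino acid response reached 1 TPM. Among them, Atf4, its transcription factor, had 98.2, 74.6 and 70.5 TPM, and its known target Asns, asparagine synthetase, had 353, 249 and 238 TPM. The serine synthesis genes Psat1, at 130, 103 and 99.98 TPM, and Phgdh, at 31.9, 27.7 and 28.1 TPM, lay above and below Atf4, respectively, in every library. The other 5 genes of the list, among them Chac1 at 10.9 ± 2.76 and Trib3 at 9.34 ± 1.56 TPM (SD, n = 3), had means between 3.58 and 10.9 TPM. All 10 genes of leucine and arginine sensing at mTORC1 reached 1 TPM, from Sesn1 at 1.82 ± 0.27 to Lamtor1 at 18.2 ± 3.63 TPM (SD, n = 3). All 6 genes of cystine use and glutathione did too. Gpx4, a peroxidase that uses glutathione, had 118, 107 and 104 TPM, and Gclc, which starts glutathione synthesis, had 6.0, 4.36 and 3.52 TPM, both above Slc7a11 in every library. The NRF2 gene Nfe2l2 had 16.5, 11.01 and 8.35 TPM.

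**Figure D4:**
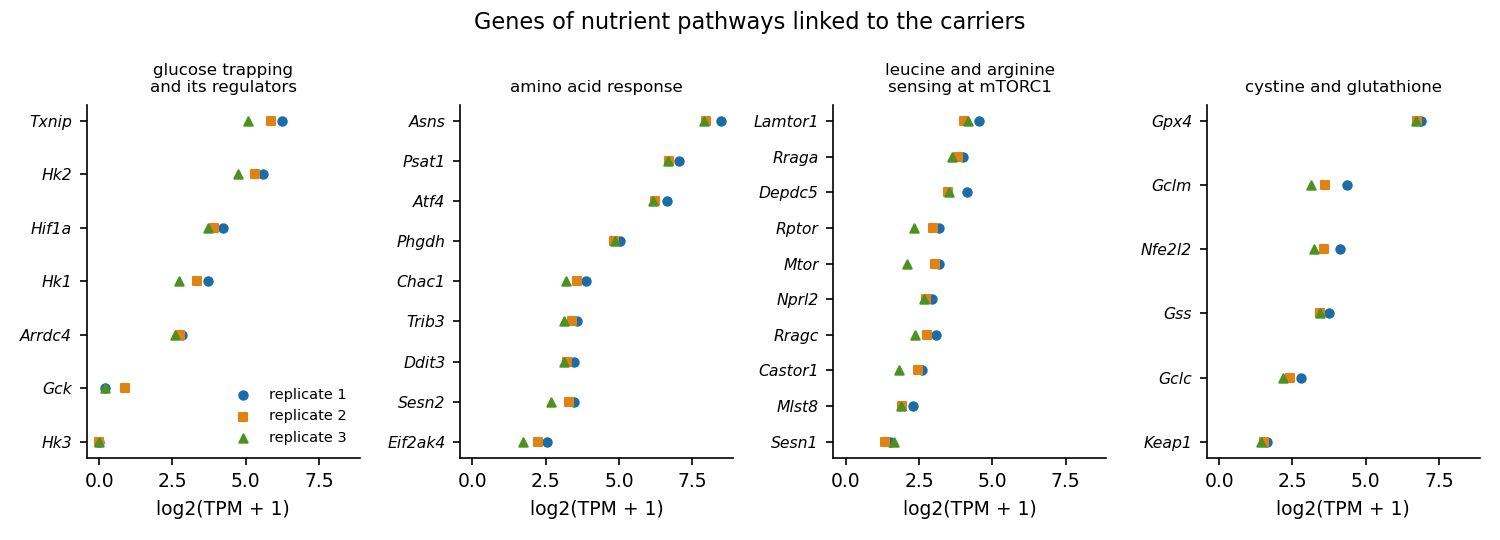
Levels in log2(TPM + 1) (horizontal axis) of the 32 genes in 4 lists linked to the carriers, with 1 point per library. Asns, at 238 to 353 TPM, is the highest gene shown, and Hk3 lies at 0.

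The 3 libraries did not give equal values. All 10 transporters had their lowest TPM in replicate 3, as did 75.6% of all genes with a mean of at least 1 TPM and 79.4% of such protein-coding genes. To compare libraries, counts were scaled to CPM with TMM factors, which adjust for differences in composition. On that scale 9 of the 10 were lowest in replicate 3, the exception being Slc7a3, where 40.4% of the 12577 genes tested were. The deviation of a library from a gene's mean followed gene length, with Spearman's rho of 0.463, 0.224 and -0.467 in replicates 1, 2 and 3. These values cover 8296 genes with a mean count of at least 100 and are a description, since genes share the libraries. They also depend on each other, because each deviation is taken from the mean of the same 3 libraries. Among tested genes at or above the median length, 54.0% were lowest in replicate 3, and 7 of the 10 transporters were of such length. The part of length in the values of the transporters was not tested beyond the correction given next.

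The next test asked whether a gene varied between libraries beyond the trend of genes of like abundance. All 10 passed the abundance filter, and 0 of them were called with edgeR (goodness-of-fit, adjusted p under 0.05), where 1.84% of tested genes were. A gene that is not called is not shown to be equal between libraries. At an unadjusted p under 0.05 there was 1, Slc7a5, where 6.96% of tested genes passed. Slc7a5 had 436, 464 and 228 TMM-scaled CPM, a 2.04-fold spread with replicate 3 low (edgeR unadjusted p = 0.00976, adjusted p = 0.275). With a correction for gene length its unadjusted p was 0.00873 and its adjusted p 0.315 by the same edgeR test, and without replicate 3 they were 0.626 and 0.999. Slc38a2 followed, at 321, 308 and 196 TMM-scaled CPM (edgeR unadjusted p = 0.0903, adjusted p = 0.964), and with the length correction its unadjusted p was 0.234. Slc2a3 was the steadiest on this scale, at 2669, 2614 and 2535 TMM-scaled CPM, a 1.05-fold spread. Slc38a1 and Slc3a2 spread 1.10-fold and 1.14-fold. The remaining genes other than Slc7a11 spread between 1.18-fold and 1.31-fold. The order depends on the scale: in TPM Slc2a3 spread 1.79-fold, more than Slc7a3 (1.56-fold) and Slc38a1 (1.65-fold).

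**Figure D5:**
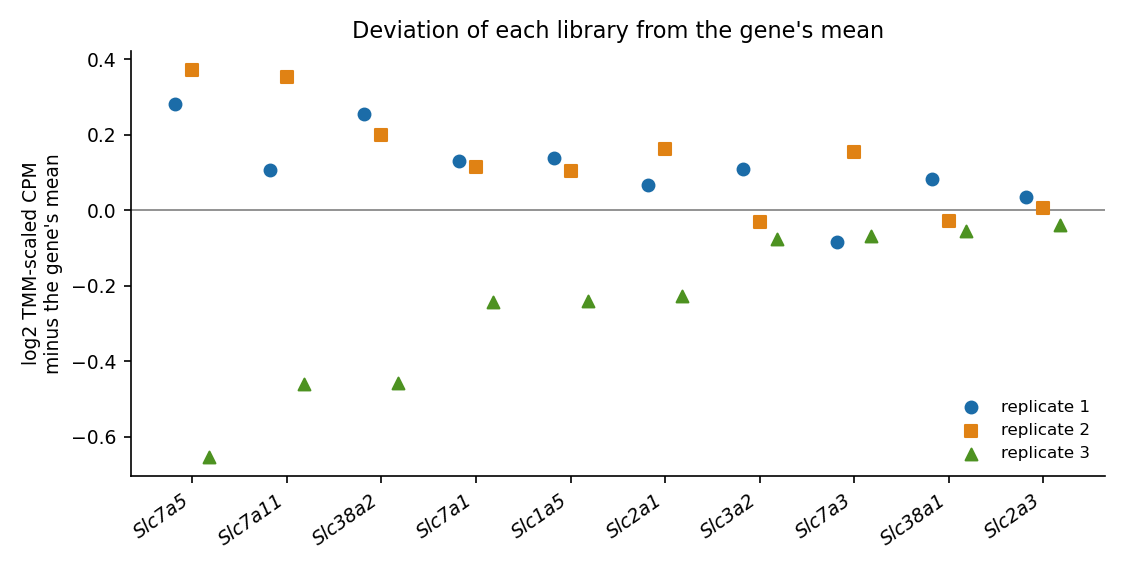
Deviation of each library from the gene's mean, in log2 TMM-scaled CPM with a prior count of 2 (vertical axis), with 1 point per library and genes ordered by replicate 3. Replicate 3 is lowest for every gene but Slc7a3 and reaches -0.65 for Slc7a5, while all 3 points of Slc2a3 lie within 0.04 of 0.

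Estimated counts can hold fractions where a read matches several genes, and 9 of the 10 genes had whole counts (within 0.005) in every library. Slc7a11 had a fraction in replicate 1. Slc7a5 lies inside Gm20388, a protein-coding record on the opposite strand that spans chromosome 8 from 119910841 to 124345722. Gm20388 had 47.7, 50.03 and 9.80 TMM-scaled CPM and was called by the goodness-of-fit test (edgeR adjusted p = 1.51e-07). Its values were thus low in the same library as those of Slc7a5. The library kit keeps the strand, but whether the counting used it is not stated. It is thus unknown whether reads of overlapping genes on opposite strands were told apart. Slc7a5 itself had whole counts in every library, and the part of Gm20388 in its values was not tested. The antisense genes annotated over Slc2a1 and Slc7a11 had no counts, and the pseudogene Gm4482 inside Slc2a3 had at most 5.11.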

How the data were processed

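RNA-seq of E14 cells (3 libraries) was analysed. Per the labels' protocols, ribosomal RNA was removed from total RNA before strand-keeping libraries were made. The submitters' processing notes name STAR, RSEM, Bowtie2, SAMtools, deepTools and the build mm10, without roles or versions; the annotation release and strand setting are not given in the sources used here. The authors deposited, per the file headers, an expected count per gene without normalization, and deposited TPM scaled by effective length. The FPKM the authors deposited was not used. Deposited length values served for scaling checks, for the comparison and correction by gene length, and for the listed lengths given. Deposited effective lengths defined the short genes.

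Of 55487 Ensembl IDs, 55141 matched GENCODE vM21 (GRCm38) and 346 did not. Coordinates are from that annotation. Levels are deposited TPM, as mean ± SD over libraries. Variability used counts rounded to whole numbers in edgeR 4.0.16 (R 4.3.3): filterByExpr, TMM, an intercept-only design and the goodness-of-fit test with trended dispersion, adjusted over 12577 genes. On simulated data it recovered few of the smallest changes made, and the filter removed some genes made very low in 1 library. Those smallest changes lowered replicate 3 by about the size of the Slc7a5 spread, so the test had little power for a spread of that size. Ratios of TPM within libraries had exact sign-flip permutation tests in scipy 1.17.1. A floor of 3 counts was 0.263, 0.464 and 0.518 CPM. Alternatives changed the scaling, pseudocount, filter, thresholds, size factors (DESeq2 1.42.0), dispersion and libraries.

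Named genes were the 10 transporters, the listed paralogues, pathway genes and markers, genes overlapping a transporter or starting within 1000 bp on the other strand, and the 3 protein-coding genes nearest in level to the highest glucose and the highest amino acid carrier. Other names were chosen after their values were seen. Of 2 records named Ddit3, the first by Ensembl ID was used. The genes and lists were chosen with earlier results of these data known.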

Additional observations from a re-analysis of the deposited data

How the results depend on the processing

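In total 21 results were recomputed under 110 alternatives, 104 planned and 6 chosen after seeing the data: 89 values stayed within the allowed spread, 20 moved and 1 reversed, counting as reversed only a ratio with the same sign in all 3 libraries. For results that are means over the 3 libraries, the allowed spread was their SD. Leaving out 1 library cannot shift such a mean by its SD. Those values were bound to stay and are no sign of robustness. Without length scaling 3 ratios had the opposite sign. Without length scaling (CPM), the log2 ratio of Slc3a2 to its light chains reversed to -0.69, that of Slc2a1 to Slc2a3 became -2.91, Slc7a5 to Slc7a11 6.59, Slc7a1 to Slc7a3 1.50 (from -0.18), Slc38a2 to Slc38a1 0.89 and Slc1a5 to Slc38a2 -1.26 (from 0.12). The median of the 10 genes was then 8.06 in log2(CPM + 1), and their share of the family CPM was 83.9%. This alternative by construction lets longer transcripts count for more. A pseudocount of 1 TPM lowered the ratio of Slc7a5 to Slc7a11 to 4.96, since Slc7a11 lies below it. Leaving genes under 100 nt of effective length out of the denominator gave the 10 genes a summed 1446 TPM in place of 532. Their median was then 5.89 in log2(TPM + 1), with Slc2a3 at 719.5 and Slc7a11 at 0.773 TPM. The number of genes at 1 TPM was 10 with CPM in place of TPM and 9 under its other alternatives. None of the 10 was called as varying beyond the trend in any of the 8 edgeR fits. In these goodness-of-fit tests the lowest adjusted p ran from 0.170 to 0.999. The count at an unadjusted p under 0.05 was 1, or 0 without replicate 3. Calls over all tested genes ran from 63 of 13302 (without replicate 2) to 289 of 24217 (without the filter). With so few genes called, the absence of calls among the 10 does not show that they were equal between libraries.

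Leaving out each replicate gave from 455.6 to 619.3 summed TPM and from -2.36 to -2.29 for Slc2a1 to Slc2a3. Depth limits Slc7a11, with 14 counts in replicate 3. No paired analysis was possible because the report covers a single group of libraries.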

Other observations

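Of the listed markers, Nanog lies near Slc2a3. It is a pluripotency factor on the other strand of chromosome 6 (122707489 to 122714633), with 13175 bases between the gene bodies. Nanog had 213, 181 and 154 TPM in replicates 1, 2 and 3, below Slc2a3 in each. On chromosome 15, Slc38a1 and Slc38a2 share a strand with 44478 bases between them, and Slc38a4 (96994820 to 97055956) follows on the same strand after a further 295089 bases. These 3 neighbours were looked up after their values were seen.

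The protein-coding genes closest in level to Slc2a3, by Euclidean distance in log2(TPM + 1) over the 3 libraries, were Rpl15 (0.23), a ribosomal protein gene, Eef2 (0.24), an elongation factor, and Pgk1 (0.30), a glycolytic enzyme. Those closest to Slc3a2 were Atp5g3 (0.16), an ATP synthase subunit, Drg1 (0.17) and Lamp1 (0.17), a lysosomal membrane protein. With 3 libraries of 1 group, this distance measures likeness of level.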
